A study of Mus musculus with 9 samples.

Results

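Collagen genes were followed across the squamocolumnar junction, the forestomach and the corpus of the mouse stomach. The members are the probe sets whose only gene symbol is Col, a number, a and a number, without Col17a1: 81 probe sets for 41 genes, among 45101 probe sets and 18193 genes with 1 symbol on the array. Of the 41 genes, 34 had a probe set bright enough to be tested, among 13637 genes tested, and 26 of these 34 lay above the filter level (the array's own 40th percentile) on all 9 arrays. None had passed the filter through the arrays of 1 zone alone. The junction is the narrow zone where the squamous lining of the forestomach meets the glandular, acid-secreting lining of the corpus. All mice were untreated, healthy female C57Bl/6 animals aged 3 months, and adjoining stripes of about 600 to 800 µm were cut from the zones of 9 stomachs. Tissue of 3 mice was pooled into each of 3 series, which gave 3 junction, 3 forestomach and 3 corpus arrays, and arrays with the same number come from the same mice. The spread within a zone is therefore that between pools of mice, and no array shows a single animal.

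Collagens are secreted or membrane-bound proteins whose alpha chains wind around each other into a helix. Fibrillar collagens build the tensile fibres of the lamina propria and submucosa and are made mainly by fibroblasts, and the fibril-associated collagens with interrupted helices (FACIT) sit on the surface of these fibres. Type IV collagen forms the sheet of basement membranes, under epithelia and around smooth muscle cells, vessels and nerves. Type VI collagen makes beaded microfilaments, type VII anchors squamous epithelium to the connective tissue, the multiplexins (types XV and XVIII) lie in basement membrane zones, and a small group spans the cell membrane.

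The labels name the samples epithelium, but transcripts of muscle and connective tissue were bright on all arrays. All 10 smooth muscle markers and all 11 fibroblast markers listed were measured, with summed signals of 27433.2 to 32495.5 (junction), 65083.1 to 70785 (forestomach) and 24613.8 to 35280.8 (corpus) for muscle, and of 19517.4 to 19741.2, 30537.6 to 31901.9 and 15195.9 to 16604.7 in the same zones for fibroblasts. In bulk tissue, fewer cells of a type and less RNA per cell cannot be told apart. Glandular markers followed the labels only in part. The summed signal of 4 surface mucous cell markers was 1138.7 to 29065.5 on forestomach arrays, against 40758.5 to 64554.8 on corpus arrays. Only 1 of these 4 was called lower in the forestomach. For 5 parietal and chief cell markers the sum was 145.2 to 3590.1 on forestomach arrays. It was 53513.2 to 77439.9 on corpus arrays and 56240.7 to 64490.7 on junction arrays. Forestomach arrays 2 and 3 held more of these parietal and chief cell transcripts than array 1, and counts without both are given where they differ. Without them 18 collagen genes rose in the forestomach against the corpus in place of 20, Col6a2 and Col7a1 losing the call, and 5 fell. Array medians ran between 47.9 and 57.1, and no pair of arrays was identical. As a measure of RNA quality, Gapdh signal at the 3′ end over that at the 5′ end was 0.759 ± 0.0043 in the junction, 0.846 ± 0.071 in the forestomach and 0.723 ± 0.029 in the corpus (mean ± SD, n = 3 each).

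The first comparison asked how collagen expression differs between the squamous and the glandular zone. Of the 34 genes tested, 20 rose in the forestomach, 5 fell and 9 did not pass (limma with Benjamini-Hochberg adjustment, adjusted p under 0.05). Over all genes tested, 59.9% were called, 30.0% higher and 29.9% lower. The median log2 difference, forestomach minus corpus, was 0.68 over the collagen genes and -0.01 over all genes. For 25 of the 34 genes no forestomach array fell within the corpus range or the reverse, against 66.4% of all genes. Rises covered the main collagens of connective tissue (types I, III, V, VI, XII, XIV and XVI) and of basement membrane (Col4a1, Col4a2, Col4a5 and Col4a6). The 5 falls were Col4a3, Col4a4, Col6a4, Col13a1 and Col27a1. Of the 25 calls, 22 were kept in each alternative that tested the gene, and Col6a2, Col5a1 and Col7a1 lost the call in at least 1.

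**Figure D1:**
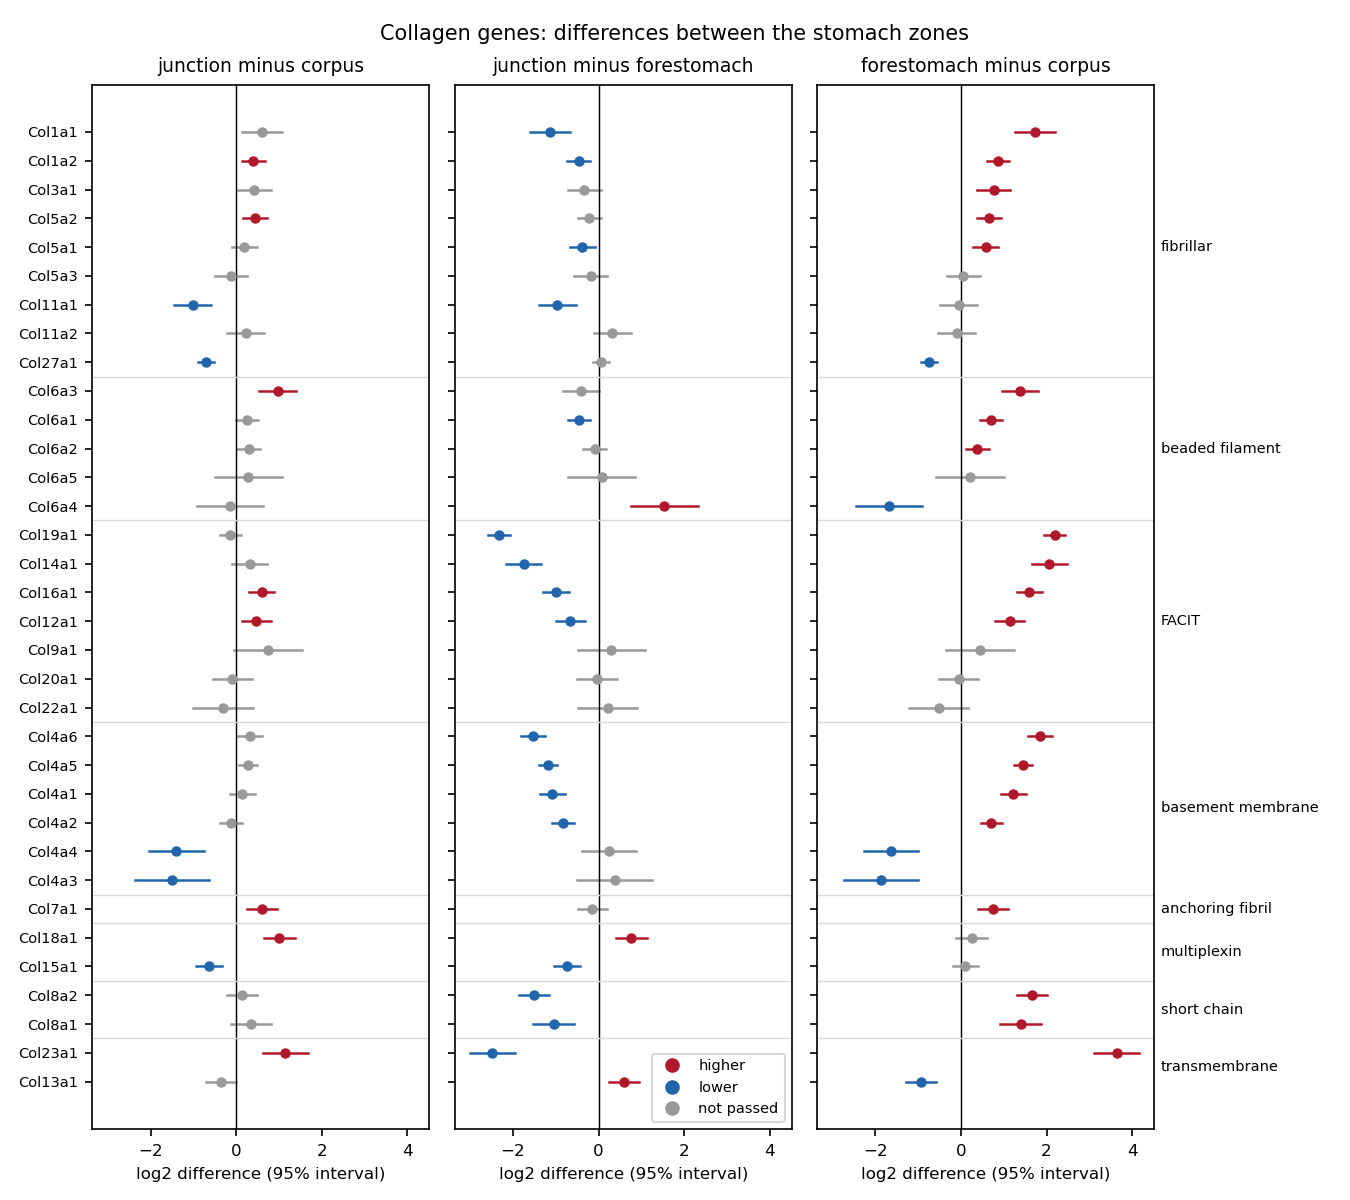
Log2 differences (log2 of signal + 9.8) of the 34 collagen genes tested, as junction minus corpus, junction minus forestomach and forestomach minus corpus. Points are the fitted differences, bars are 95% intervals from limma (9 arrays), and red, blue and grey mark higher, lower and not passed. Most genes lie right of 0 in the forestomach minus corpus panel and left of 0 in the junction minus forestomach panel.

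Among fibrillar collagens, both chains of type I, the chain of type III and Col5a1 and Col5a2 of type V rose in the forestomach. Col1a1, a chain of type I collagen, the main fibre of connective tissue, had signals of 1099.1, 1468.1 and 1121.9 in the junction and 2603.8, 3654.4 and 2014.3 in the forestomach, against 781.4, 828.1 and 790.4 in the corpus. The forestomach arrays spread widely but stayed above all others, and the junction arrays lay between. The log2 difference was 1.73 ± 0.21 (± SE, 3.32-fold, adjusted p = 0.000112) for forestomach minus corpus and -1.13 ± 0.21 (adjusted p = 0.00235) for junction minus forestomach, while junction minus corpus did not pass (0.60 ± 0.21, adjusted p = 0.0644) but did under several alternatives, among them the series as a block (adjusted p = 0.0351). A dimmer Col1a1 probe set gave 0.76 for forestomach minus corpus, also called, so the size of the rise depends on the probe set. Col1a2, the partner chain of type I, had 5401.3, 5500.9 and 5284.1 in the junction and 7214.8, 8586.5 and 6664 in the forestomach, against 3877.8, 4558.2 and 3863.5 in the corpus. The forestomach rose by 0.86 ± 0.12 over the corpus (adjusted p = 0.000247). Its junction arrays lay above all corpus and below all forestomach arrays and passed both ways (0.40 ± 0.12, adjusted p = 0.0377, against the corpus and -0.46 ± 0.12, adjusted p = 0.0115, against the forestomach). The call against the corpus was lost with no filter (0.0654), with the mean of the probe sets (0.03, adjusted p = 0.932) and without corpus array 1 or 3, forestomach array 1, any junction array or any series (up to 0.217). A dim further probe set gave -0.78 there and was not called, but was called against the forestomach (-1.47). The other, above the filter level on all 9 arrays, was called in neither junction comparison. It gave 0.45 (adjusted p = 0.131) against the corpus and -0.50 (0.0713) against the forestomach. In that fit over all kept probe sets, the one tested was not called against the corpus (0.054). For the probe set tested, the call against the forestomach was lost without series 1 (0.0859), series 2 (0.0516) and forestomach arrays 2 and 3 (0.0764).

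Col3a1, which forms fibres together with type I in soft organs, had 6418.9, 7271.3 and 6509.4 in the junction and 7842.5, 10790.6 and 7211.2 in the forestomach, against 4756.3, 5892.5 and 4459.9 in the corpus. Forestomach and corpus arrays did not overlap, and the rise was 1.7-fold (adjusted p = 0.0041). The junction was not shown to differ from the corpus (adjusted p = 0.0989) or the forestomach (adjusted p = 0.139) but was called in each with the series as a block (adjusted p = 0.0299 and 0.0386). Of the type V chains, which start fibre assembly, Col5a1 rose by 0.58 ± 0.13 (adjusted p = 0.00444, 0.0506 without series 2) and Col5a2 by 0.65 ± 0.12 (adjusted p = 0.00171), while Col5a3 gave 0.06 ± 0.17 (adjusted p = 0.785). Col5a1 had 487.5, 512.5 and 501.6 in the junction and 635.4, 783.7 and 566.8 in the forestomach, against 484.5, 426.4 and 403.5 in the corpus. Col5a2 had 1027.1, 1110.2 and 1030.7 in the junction and 1103.5, 1458.5 and 1141.3 in the forestomach, against 775.3, 836.8 and 721.8 in the corpus. For both, every junction array was above every corpus array, which passed for Col5a2 (0.44 ± 0.12, adjusted p = 0.0316) and not for Col5a1 (0.19 ± 0.13, adjusted p = 0.313). The Col5a2 call was lost with no filter (0.056) and without corpus array 1 or 3, any junction array or any series (up to 0.197). The other kept Col5a2 probe set was not called there (0.46, adjusted p = 0.13). It was called lower in the junction against the forestomach (-0.62, adjusted p = 0.0333), where the probe set tested was not. Col5a1 fell in the junction against the forestomach (-0.38 ± 0.13, adjusted p = 0.0391), a call lost without any junction array or series, among other settings (up to 0.189). In the fit over all kept probe sets, the Col5a1 probe set tested was not called there (adjusted p = 0.0525). The others were not called in it either (-0.31, adjusted p = 0.233, and -0.29, adjusted p = 0.16). For forestomach minus corpus, the first of them was not called either (0.43, adjusted p = 0.0847), and the second was (0.58).

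The other fibrillar members did not follow. Col27a1, a fibrillar chain best known from cartilage, had 225.1, 221.6 and 232 in the junction and 213.8, 226 and 214.2 in the forestomach, against 401, 370.7 and 350.4 in the corpus. Both zones lay below every corpus array and close to each other. The log2 differences were -0.70 ± 0.08 for the junction (adjusted p = 0.000567) and -0.75 ± 0.08 for the forestomach (adjusted p = 7.6e-05) against the corpus, and junction minus forestomach was 0.05 ± 0.08 with a 95% interval from -0.14 to 0.24. A second, dimmer Col27a1 probe set passed in none of these (-0.04 for forestomach minus corpus). Col11a1, a minor chain of cartilage fibres, was dim everywhere, with 12.9, 13.3 and 18.7 in the junction, 32.5, 45.8 and 37.7 in the forestomach and 53.7, 40.2 and 29.4 in the corpus. It fell in the junction against both (adjusted p = 0.00535 against the corpus and 0.00325 against the forestomach), all junction arrays lying under the filter level, and lost both calls without series 2 (0.0833 and 0.0647) and the second without forestomach arrays 2 and 3 (0.0795). Col5a3 and Col11a2 passed in no comparison.

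The promoters of Col1a2 and Col3a1 are printed because these genes rose together in the forestomach and the letters before their starts differ. The stretches are the 250 bases before the start of transcription in RefSeq (GRCm38.p6), at chr6:4505368-4505617 and chr1:45311288-45311537, both on the plus strand. Capitals mark 3 motifs, each searched on both strands. The GC box is GGGCGG. The CCAAT box has the letters of its name. The TATA box is TATAAA. No motif overlapped another in the stretches shown.
Col1a2: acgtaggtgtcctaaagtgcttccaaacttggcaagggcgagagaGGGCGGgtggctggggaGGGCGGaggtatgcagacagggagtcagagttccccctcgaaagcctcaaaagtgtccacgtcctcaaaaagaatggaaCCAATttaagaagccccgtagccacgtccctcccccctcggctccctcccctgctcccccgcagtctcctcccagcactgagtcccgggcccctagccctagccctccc
Col3a1: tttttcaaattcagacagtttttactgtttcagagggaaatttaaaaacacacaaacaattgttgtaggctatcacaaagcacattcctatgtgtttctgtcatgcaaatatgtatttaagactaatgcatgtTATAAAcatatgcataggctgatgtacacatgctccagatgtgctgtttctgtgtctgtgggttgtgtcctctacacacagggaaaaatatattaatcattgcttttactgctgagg
Col1a2 held 2 GC boxes and 1 CCAAT box here, and Col3a1 held 1 TATA box, some distance before the start. Windows of 300 bases (250 before to 50 after the start) were found for 32 of the 41 genes, 35 windows in all. Of these, 62.9% held a GC box, 34.3% a CCAAT box and 11.4% a TATA box, against 35.7%, 37.4% and 13.6% of all 32851 windows. A match is a description of letters and not a bound site.

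Type VI collagen, whose chains assemble into microfilaments around cells, rose in its Col6a1, Col6a2 and Col6a3 chains. Col6a3 had 879.7, 1128.5 and 913.1 in the junction and 1096.2, 1609.1 and 1202.4 in the forestomach, against 450.7, 607.8 and 426.3 in the corpus. The forestomach was above the corpus 2.6-fold (1.38 ± 0.19, adjusted p = 0.000255). Its junction arrays were all above the corpus (0.97 ± 0.19, adjusted p = 0.00666), overlapped the forestomach and were not shown to differ from it (-0.41 ± 0.19, 95% interval -0.83 to 0.02), except with the series as a block (adjusted p = 0.0114). Without series 3 the call against the corpus was lost (0.0895). Col6a1 had 1605.6, 1642.7 and 1319.5 in the junction and 1912.5, 2257.8 and 2077.6 in the forestomach, against 1223.6, 1344.7 and 1239.7 in the corpus. Col6a2 had 1651.6, 1678 and 1640.3 in the junction and 1636.8, 2090.3 and 1585.5 in the forestomach, against 1287.2, 1454.6 and 1311.3 in the corpus. The forestomach stood above the corpus for both, by 0.71 ± 0.11 for Col6a1 (adjusted p = 0.000682) and 0.38 ± 0.12 for Col6a2 (adjusted p = 0.0218), and Col6a1 also fell in the junction against the forestomach (-0.45 ± 0.11, adjusted p = 0.0114), which was lost without series 2 (0.0596), series 3 (0.105) and forestomach arrays 2 and 3 (0.183). The Col6a2 rise was the smallest of the 20, and leaving out corpus array 1 or 3, forestomach array 2 or any series ended the call (adjusted p up to 0.103).

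Col6a4, a type VI chain from a separate gene cluster, went the other way. It had 130.5, 211.5 and 104.6 in the junction and 68.1, 22 and 48.4 in the forestomach, against 164.1, 177.5 and 135.6 in the corpus, and only the forestomach stood apart. The forestomach was 3.2-fold below the corpus (adjusted p = 0.00258), the junction 2.91-fold above the forestomach (adjusted p = 0.00609), and junction minus corpus was -0.14 ± 0.34 with a wide 95% interval from -0.91 to 0.64. Without series 2 the log2 difference of junction minus forestomach was 0.91 in place of 1.54, and without forestomach arrays 2 and 3 it was 0.97 and not called (adjusted p = 0.0856). Col6a5 lay near the filter level and passed in no comparison.

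On the probe sets tested, the FACIT group held the steepest gradients among matrix collagens. Col19a1 had 75.4, 64.8 and 60 in the junction and 400.1, 363.7 and 357.7 in the forestomach, against 69.1, 82 and 72.1 in the corpus. The junction and corpus arrays overlapped, and every forestomach array was far above both. The log2 difference was 2.19 ± 0.11 (4.56-fold, adjusted p = 5.47e-07) for forestomach minus corpus and -2.33 ± 0.11 (adjusted p = 1.5e-06) for junction minus forestomach, and junction minus corpus was -0.14 ± 0.11 (95% interval -0.39 to 0.11). The other kept Col19a1 probe set was called the same way in both comparisons with the forestomach. Its differences were smaller there, and smaller than those of the probe set tested for Col4a6. The size of the gradient, and with it the rank of Col19a1, therefore depends on the probe set. In mice, Col19a1 is known for a role in the muscle of the lower oesophagus. The summed smooth muscle markers named above were high in the forestomach and overlapped between junction and corpus in the same manner, and their part in this result was not tested.

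Col14a1, which regulates fibre growth, had 367, 482.6 and 318.3 in the junction and 1315.3, 1563.3 and 1099.3 in the forestomach, against 276.7, 334.6 and 311 in the corpus. It showed the same order, with junction and corpus overlapping (2.06 ± 0.18 for forestomach minus corpus, adjusted p = 1.49e-05, and -1.75 ± 0.18 for junction minus forestomach, adjusted p = 9.45e-05). Col16a1, found near fibrillin microfibrils and fibres, had 196.4, 264.8 and 249.5 in the junction and 495.7, 512.3 and 432 in the forestomach, against 157.5, 159.6 and 139.3 in the corpus, with all junction arrays between both neighbours. Its differences were 1.60 ± 0.13 for forestomach minus corpus (adjusted p = 1.02e-05) and 0.60 ± 0.13 for junction minus corpus (adjusted p = 0.0111), and the junction lay 2-fold below the forestomach (adjusted p = 0.000381). Without series 2 (0.104) or series 3 (0.126) the junction was not called against the corpus. Col12a1, a tension-bearing partner of type I fibres, had 158.4, 160.9 and 114.4 in the junction and 201.2, 237.2 and 263.1 in the forestomach, against 97.5, 96.7 and 106 in the corpus. No zone overlapped another. It rose 2.21-fold in the forestomach (adjusted p = 0.000186), and its call for the junction over the corpus (0.48 ± 0.15, adjusted p = 0.0461) was lost in most left-out settings (adjusted p up to 0.295 without series 2), with the series as a block (0.0818), with no filter (0.0755), with only the 6 arrays compared (0.0601) and with the mean of the probe sets (0.279). Against the forestomach the junction fell (-0.67 ± 0.15, adjusted p = 0.00631), a call lost without series 3 (0.0537), forestomach arrays 2 and 3 (0.14) and with the mean of the probe sets (0.14). The other kept Col12a1 probe set passed in no comparison (1.47 for forestomach minus corpus, adjusted p = 0.076). In the same fit over all kept probe sets, the one tested was not called for junction minus corpus (0.0604). The probe sets tested for Col9a1, Col20a1 and Col22a1, dim on all arrays, passed in no comparison. A dimmer Col20a1 probe set, above the filter level on 3 arrays, none of them from the junction, was called lower in the junction against the corpus (adjusted p = 0.0388) and the forestomach (0.032). Col22a1 was called lower in the forestomach against the corpus without corpus array 2 (0.0284) or series 2 (0.0435).

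**Figure D2:**
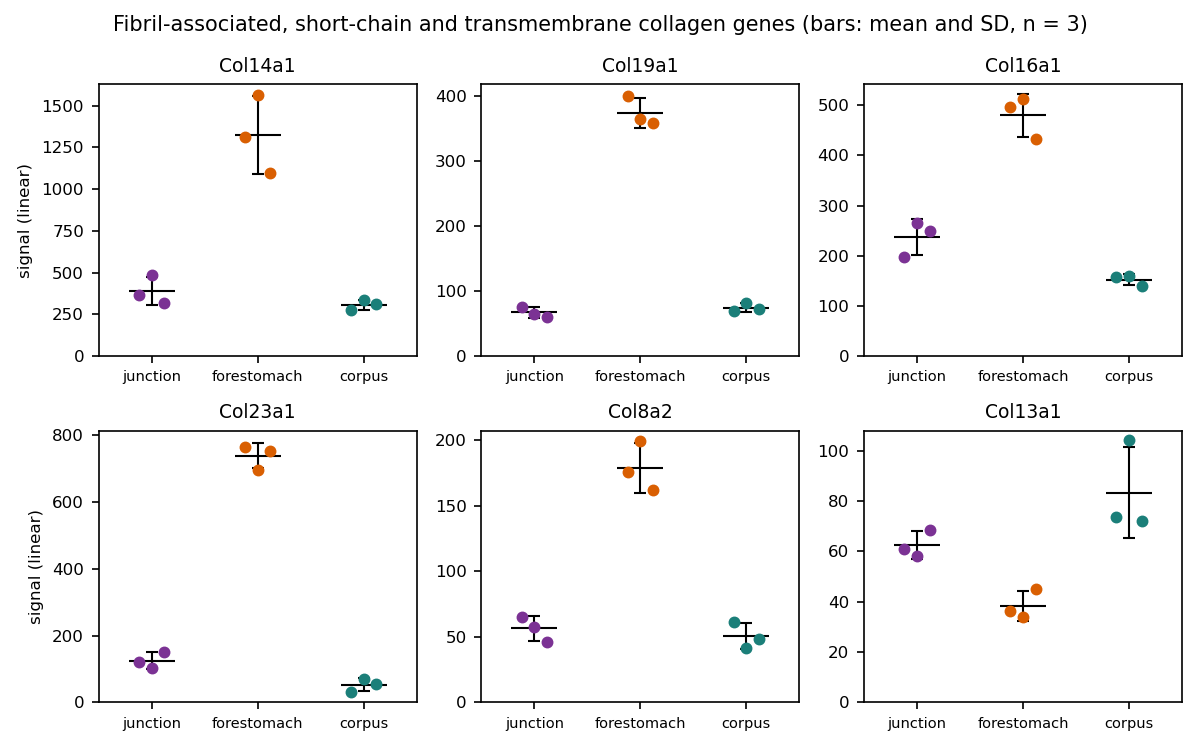
Linear signal of 6 collagen genes on each array (points) for junction, forestomach and corpus, with the mean and SD of 3 arrays as bars. Col14a1, Col19a1, Col16a1, Col23a1 and Col8a2 are highest in the forestomach on every array, and Col13a1 is lowest there.

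The type IV genes split by chain: 4 rose and 2 fell in the forestomach, and both genes of each genomic pair went the same way. These genes lie in pairs of neighbours: Col4a1 with Col4a2 on chromosome 8, Col4a3 with Col4a4 on chromosome 1 and Col4a5 with Col4a6 on chromosome X. The RefSeq starts of Col4a1 (minus strand) and Col4a2 (plus strand) lie 21 bases apart, and those of Col4a5 (plus) and Col4a6 (minus) 1343 bases apart, pointing away from each other. The following sequences show bases at or before these starts. The first is the stretch from the start of Col4a2 to that of Col4a1, chr8:11312805-11312826 on the plus strand. The spans of these genes overlap there, so the stretch lies inside both and not before either start. The others are the bases before the starts of Col4a5 (chrX:141475169-141475369, plus strand) and Col4a6 (chrX:141474096-141474326, minus strand) that lie outside annotated genes, with capitals as above.
Col4a2 to Col4a1: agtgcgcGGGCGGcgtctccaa
Col4a5: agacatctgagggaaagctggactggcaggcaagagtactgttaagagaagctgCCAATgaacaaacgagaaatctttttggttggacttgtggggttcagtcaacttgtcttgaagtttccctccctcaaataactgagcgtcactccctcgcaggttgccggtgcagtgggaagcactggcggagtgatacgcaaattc
Col4a6: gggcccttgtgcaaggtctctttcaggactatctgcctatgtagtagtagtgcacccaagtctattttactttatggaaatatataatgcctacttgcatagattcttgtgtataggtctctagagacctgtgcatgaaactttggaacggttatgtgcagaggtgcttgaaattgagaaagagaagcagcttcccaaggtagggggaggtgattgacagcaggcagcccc
The stretch between the Col4a2 and Col4a1 starts held 1 GC box, that of Col4a5 held 1 CCAAT box and that of Col4a6 held none of these motifs. The stretches of Col4a5 and Col4a6 are parts of their windows of 300 bases. Each of these full windows held 1 GC box, which is not within the letters printed.

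Both genes of the Col4a1 pair, the chains found in nearly all basement membranes, rose in the forestomach. Col4a1 had 1291.5, 1450.5 and 1271.2 in the junction and 2450.7, 3099.3 and 2991.6 in the forestomach, against 1287.4, 1277.5 and 1065.1 in the corpus. Col4a2 had 880.9, 753.7 and 718.3 in the junction and 1302.9, 1445.5 and 1454.4 in the forestomach, against 814, 942.5 and 801 in the corpus. For both, forestomach arrays stood apart and junction and corpus overlapped. The differences were 1.23 ± 0.13 and 0.71 ± 0.11 for forestomach minus corpus (adjusted p = 4.26e-05 and 0.000613), and -1.08 ± 0.13 and -0.83 ± 0.11 for junction minus forestomach (adjusted p = 0.0002 and 0.000458). A second Col4a1 probe set rose by only 0.48.

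The Col4a5 pair, chains of the basement membranes of smooth muscle and of squamous epithelium, rose in the forestomach as well. Col4a5 had 1494.6, 1422.8 and 1458 in the junction and 3310.5, 3068.8 and 3554.5 in the forestomach, against 1144.6, 1158.6 and 1306.1 in the corpus. Col4a6 had 294.8, 385 and 295 in the junction and 1001.6, 881 and 957.2 in the forestomach, against 268.5, 262.2 and 239.7 in the corpus. Only the forestomach stood far from the others. Forestomach minus corpus was 1.45 ± 0.09 and 1.84 ± 0.12 (adjusted p = 2.49e-06 and 2.88e-06), and junction minus forestomach -1.18 ± 0.09 and -1.52 ± 0.12 (adjusted p = 2.49e-05 for both). All junction arrays lay above all corpus arrays for both genes, by differences that did not pass (0.28 ± 0.09 and 0.32 ± 0.12, adjusted p = 0.0622 and 0.0909), though Col4a5 did with limma's trend and robust options (0.0185) and with the filter on all 9 arrays (0.0479), and Col4a6 with median centring (0.0409). The second probe set of each gave 1.40 and 2.15 for forestomach minus corpus.

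The Col4a3 pair, chains of the kidney glomerulus and a few other epithelia, showed the reverse. Col4a3 had 8.7, 40.8 and 52 in the junction and 16.9, 20.4 and 22.9 in the forestomach, against 98.9, 108.2 and 91.1 in the corpus. Col4a4 had 80, 36.9 and 29.1 in the junction and 39.7, 39.8 and 30.2 in the forestomach, against 147.1, 143.7 and 114 in the corpus. Corpus arrays were above all others for both genes, and junction array 1 was the lowest of its zone for Col4a3 but the highest for Col4a4. The forestomach was 3.66-fold (adjusted p = 0.0027) and 3.12-fold (adjusted p = 0.000977) below the corpus, and the junction 2.82-fold (adjusted p = 0.0224) and 2.63-fold (adjusted p = 0.00782) below it. A second Col4a4 probe set was also called lower in both zones. It lay above the filter level on 3 corpus arrays but on only 1 junction and 1 forestomach array. It was thus kept only because of the corpus, and its calls add no support. The remaining Col4a4 probe set had passed the filter through the corpus arrays alone, so its calls support nothing. The second Col4a3 probe set was called lower in the forestomach (-2.33) but not in the junction (-0.92), and higher in the junction than in the forestomach (1.42, adjusted p = 0.0191). The Col4a3 probe set tested gave 0.38 ± 0.38 for junction minus forestomach (adjusted p = 0.455), and 0.91 without junction array 1 (adjusted p = 0.0019), so that array decides this value. Both genes lost the junction call without series 2 (adjusted p = 0.129 and 0.124) and series 3 (0.0622 and 0.0623), and Col4a3 also without any single corpus array (0.0512 to 0.0633). No forestomach array reached the filter level for the Col4a3 probe set tested. It lay above that level on 2 junction and 3 corpus arrays, so it too was kept only because of the corpus. The fall in the forestomach was -2.26 with a pseudocount of 1 and -1.35 with one of 30.9.

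**Figure D3:**
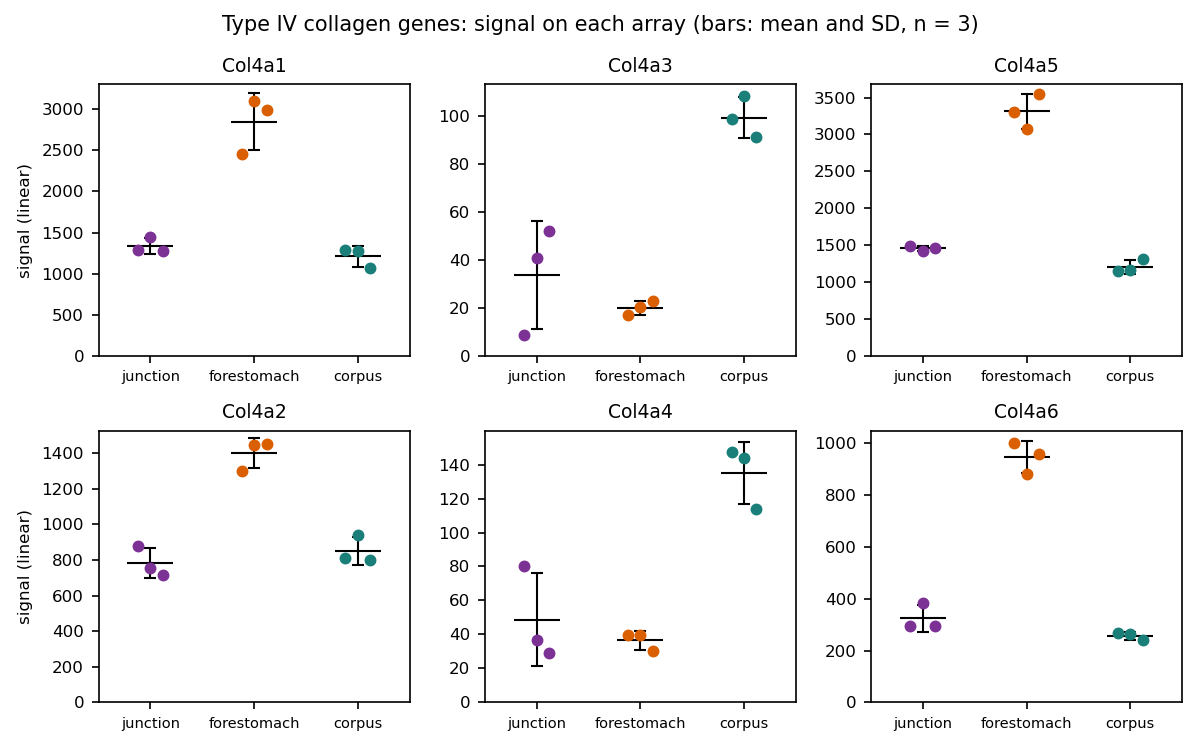
Linear signal of the 6 type IV collagen genes on each array (points) for junction, forestomach and corpus, with the mean and SD of 3 arrays as bars and each genomic pair in 1 column. Col4a1, Col4a2, Col4a5 and Col4a6 are highest in the forestomach, and Col4a3 and Col4a4 are highest in the corpus.

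Col7a1, the anchoring fibril that fastens squamous epithelium to the dermis or lamina propria, rose in both zones that hold squamous epithelium. It had 172.6, 173 and 195.8 in the junction and 185.8, 211.5 and 202.9 in the forestomach, against 133.3, 131 and 87.7 in the corpus. Both zones stood above every corpus array and overlapped each other. The differences from the corpus were 0.60 ± 0.15 for the junction (adjusted p = 0.0218) and 0.74 ± 0.15 for the forestomach (adjusted p = 0.00281), and junction minus forestomach was -0.14 ± 0.15 (95% interval -0.49 to 0.21). The forestomach call was lost without forestomach arrays 2 and 3 together (adjusted p = 0.0673), and the junction call without junction array 2 or 3 (0.0523 and 0.0759) or any series (0.0664 to 0.128). The summed signal of 6 markers of the squamous basal layer was 14166.1 to 19443.3 in the junction and 13639 to 16418.6 in the forestomach, against 2365.4 to 2404.4 in the corpus. Not all 6 rose. In the forestomach against the corpus 4 rose, Itga6 fell (-0.94) and Itgb4 did not pass (-0.09). In the junction 5 rose and Itga6 did not pass (0.08). Itga6 alone had a mean of 1799.63 in the corpus. The part of these markers in the Col7a1 result was not tested.

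The multiplexins moved in opposite directions in the junction. Col18a1, whose protein carries the endostatin fragment and lies in epithelial and vascular basement membranes, had 445.8, 604.2 and 556.5 in the junction, 317.9, 363 and 253.5 in the forestomach and 240.4, 286.8 and 249.7 in the corpus. Every junction array was above all 6 others, and forestomach and corpus overlapped. The junction was 2.02-fold above the corpus (1.01 ± 0.16, adjusted p = 0.00249) and 1.7-fold above the forestomach (0.77 ± 0.16, adjusted p = 0.00462). The call against the forestomach was lost without series 3 (adjusted p = 0.066). The second Col18a1 probe set had 501.3, 462.7 and 539.6 in the junction, 155.9, 214.7 and 175.3 in the forestomach and 233.3, 235.3 and 245 in the corpus. It rose in the junction by 1.04 against the corpus and 1.42 against the forestomach, and was lower in the forestomach than in the corpus (-0.38, called), where the first probe set was not (0.25 ± 0.16, adjusted p = 0.212).

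Col15a1, found around vessels, muscle and nerve, had 221, 216.1 and 157.4 in the junction, 318.2, 347.6 and 331.3 in the forestomach and 313.3, 322.8 and 289.8 in the corpus. Every junction array was below all 6 others, 1.55-fold against the corpus (-0.63 ± 0.13, adjusted p = 0.0095) and 1.66-fold against the forestomach (-0.73 ± 0.13, adjusted p = 0.00215). The call against the corpus was lost without any of the series (adjusted p = 0.051 to 0.0843), and that against the forestomach without forestomach arrays 2 and 3 (0.0545). Of 10 endothelial and pericyte markers 1 fell in the junction against the corpus (Emcn, -0.41, adjusted p = 0.0248) and none rose, where 25.0% of all genes were called. Against the forestomach 2 fell (Rgs5, -0.60, and Pecam1, -0.33) and 1 rose (Kdr, 0.85, adjusted p = 0.0318), where 44.6% of all genes were called. Of 6 nerve and glia markers measured of 8 listed, 1 fell in the junction against the corpus and 4 against the forestomach, and none rose. Of 10 smooth muscle markers, none passed in the junction against the corpus and 10 fell against the forestomach. The part of all these markers in the fall of Col15a1 was not tested.

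**Figure D4:**
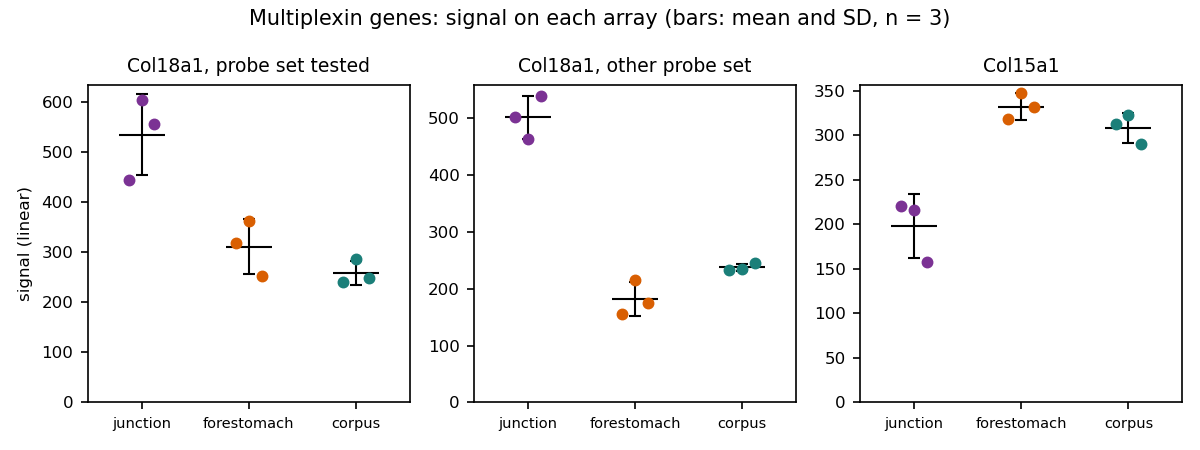
Linear signal of both Col18a1 probe sets and of Col15a1 on each array (points) for junction, forestomach and corpus, with the mean and SD of 3 arrays as bars. The junction arrays are the highest for both Col18a1 probe sets and the lowest for Col15a1.

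The junction was tested against both neighbours at once by taking, for each gene, the larger p of its 2 comparisons. Col18a1 (above both), Col15a1 and Col11a1 (below both) passed each comparison on its own, but after adjustment over all genes none of the 34 collagen genes passed the joint test. The adjusted p was 0.156 for Col18a1, 0.157 for Col15a1 and 0.126 for Col11a1. Over all genes 0.198% were called above and 0.0147% below both. Col18a1 passed with the mean of its probe sets (adjusted p = 0.0173) and with limma's trend and robust options (0.0334), and its adjusted p ranged up to 1 over the alternatives. The range was 0.0562 to 0.873 for Col15a1 and 0.0895 to 1 for Col11a1.

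The short-chain collagens, which form open lattices around vessels and under endothelium, rose in the forestomach on the probe sets tested. Col8a2 had 65.5, 57.4 and 46.3 in the junction and 175.7, 199.1 and 161.8 in the forestomach, against 61.2, 41.7 and 48.5 in the corpus, with only the forestomach standing apart (1.65 ± 0.16, adjusted p = 2.49e-05, and -1.52 ± 0.16 for junction minus forestomach, adjusted p = 9.71e-05). Col8a1 had 142.7, 178.2 and 114.7 in the junction and 244.2, 401.8 and 293.5 in the forestomach, against 98.3, 106.5 and 128.4 in the corpus. Again only the forestomach stood apart (1.40 ± 0.21 for forestomach minus corpus, adjusted p = 0.000443, and -1.05 ± 0.21 for junction minus forestomach, adjusted p = 0.0036). Without forestomach arrays 2 and 3, the second of these differences was -0.73. The other kept Col8a1 probe set passed in no comparison. Its differences had the same signs, with adjusted p = 0.0696 for forestomach minus corpus and 0.33 for junction minus forestomach.

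The transmembrane collagens diverged. Col23a1, a shed surface collagen found in epithelia such as skin, had 120.1, 104.1 and 152.1 in the junction and 765.2, 695.1 and 753.3 in the forestomach, against 32, 71.5 and 54 in the corpus. No zone overlapped another. This was the largest difference among the collagen genes tested, 12.4-fold between forestomach and corpus (3.64 ± 0.23, adjusted p = 2.17e-06), with the junction 2.23-fold above the corpus (adjusted p = 0.00765) and 5.58-fold below the forestomach (adjusted p = 5.81e-05). Without series 3 the junction was not called against the corpus (0.101). Its size depends on the probe set, since the 2 others gave log2 differences of 2.17 and 2.79 for forestomach minus corpus, and for junction minus corpus 0.42 and 1.33, neither called. Col13a1, which sits at cell contacts and at nerve-muscle junctions, had 60.9, 58.1 and 68.6 in the junction and 36.2, 33.9 and 45.2 in the forestomach, against 73.7, 104.2 and 72 in the corpus. The forestomach lay below both (-0.94 ± 0.15 for forestomach minus corpus, adjusted p = 0.000703, and 0.59 ± 0.15 for junction minus forestomach, adjusted p = 0.0127), and the second of these calls was lost without series 1 (0.101) and without forestomach arrays 2 and 3 (0.0681).

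The second comparison asked what separates the junction from the glandular tissue beside it. Of the 34 collagen genes 8 rose, 5 fell and 21 did not pass, against 25.0% of all genes called, 13.2% higher and 11.8% lower. Arrays of junction and corpus were apart for 20 of the 34, against 43.8% of all genes. The median log2 difference was 0.27, against -0.05 over all genes. The rises were Col23a1, Col18a1, Col6a3, Col7a1, Col16a1, Col12a1, Col5a2 and Col1a2, and the falls Col4a3, Col4a4, Col11a1, Col27a1 and Col15a1. These calls rest on few arrays: leaving out corpus array 1 or 3 or junction array 1, 2 or 3 left 4 or 5 rises, and leaving out series 1, 2 or 3 left 4, 3 and 2 rises and 4, 1 and 2 falls. Col18a1 and Col27a1 were the genes called in each alternative that tested them.

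The third comparison set the junction against the squamous tissue on its other side. Of the 34 genes 17 fell, 3 rose (Col6a4, Col18a1 and Col13a1) and 14 did not pass, against 44.6% of all genes called, 23.1% lower and 21.5% higher. Arrays of junction and forestomach were apart for 22 of the 34, against 55.8% of all genes. The median log2 difference was -0.39, against -0.04 over all genes. Of the 20 calls, 10 were kept in each alternative: Col1a1, Col14a1, Col16a1, Col19a1, Col23a1, Col8a2 and the type IV chains Col4a1, Col4a2, Col4a5 and Col4a6. Without forestomach arrays 2 and 3 together, 10 fell and 1 rose. Several of the others rested on single arrays or series, Col5a1 on most of them.

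Where the junction stood between its neighbours differed among the 20 genes that rose in the forestomach. On the linear signal of each series, the step between corpus and junction was divided by that between corpus and forestomach, so 0 is the corpus level and 1 the forestomach level. Col4a1 was at 0.0035, 0.095 and 0.107, Col4a5 at 0.162, 0.138 and 0.0676, Col14a1 at 0.0869, 0.12 and 0.00926 and Col19a1 at 0.019, -0.0611 and -0.0424 in series 1, 2 and 3. These genes stayed near the corpus level in all series. Col6a3 was at 0.665, 0.52 and 0.627, Col5a2 at 0.767, 0.44 and 0.736 and Col7a1 at 0.749, 0.522 and 0.938, nearer the forestomach in most series. The median over the 20 genes of each gene's middle value was 0.242, against 0.31 over all 4085 genes that rose in the forestomach, 0.241 over 8 fibroblast markers and -0.0072 over 10 smooth muscle markers that did. Taken within series 1, 2 and 3, the median of the 20 was lower, at 0.168, 0.237 and 0.124. It was 0.236, 0.345 and 0.348 over all genes that rose and 0.243, 0.172 and 0.222 over the fibroblast markers. For the smooth muscle markers it was 0.0716, -0.0522 and -0.0072. On the log2 scale the median of the middle values was 0.378 for the 20. There it was 0.412 for all genes that rose, 0.341 for the fibroblast and -0.0122 for the smooth muscle markers.

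**Figure D5:**
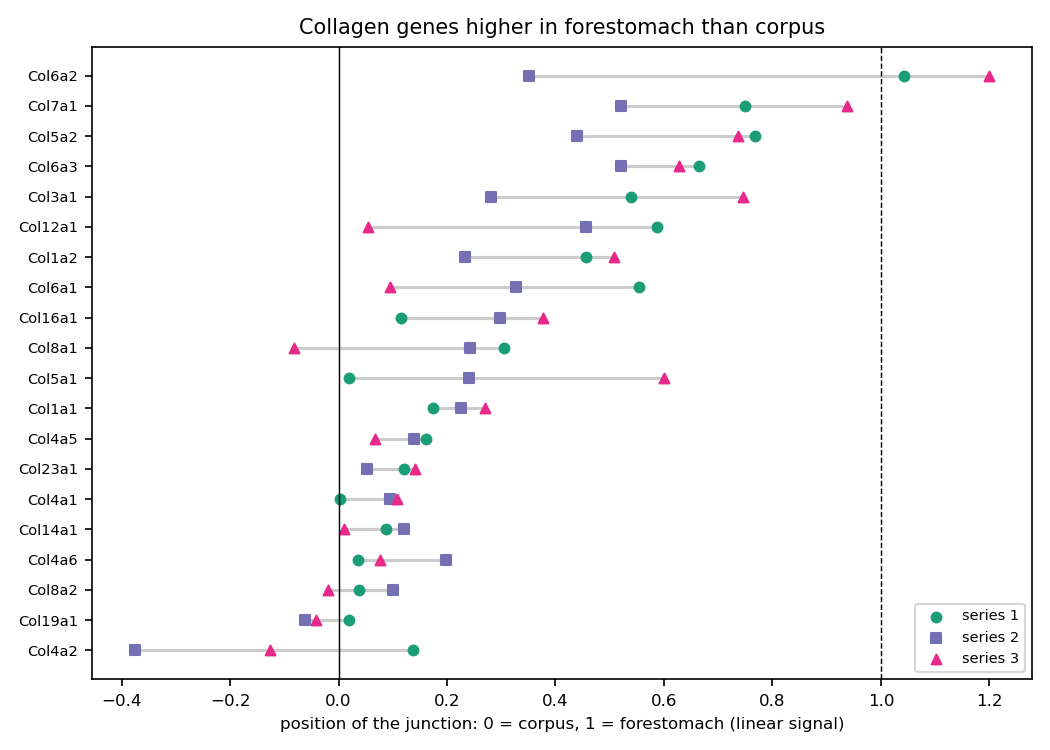
Position of the junction for the 20 collagen genes higher in forestomach than corpus, as (junction minus corpus) over (forestomach minus corpus) of linear signals, with 1 point per series and a line over their range. On this linear scale Col4a1, Col4a5, Col4a6, Col8a2, Col14a1, Col19a1 and Col23a1 lie close to the corpus value of 0, and Col4a2 reaches below it. Col6a2 passes the forestomach value of 1 in series 1 and 3, and Col7a1, Col5a2, Col3a1 and Col6a3 come next.

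Genes that make, trim and bind collagen were set beside the collagens. Their counts stand against 59.9% of all genes called for forestomach against corpus (30.0% higher, 29.9% lower), 25.0% for junction against corpus (13.2% and 11.8%) and 44.6% for junction against forestomach (21.5% and 23.1%). Of 21 genes of collagen biosynthesis and processing measured of 26 listed, 12 rose and 6 fell in the forestomach against the corpus, with log2 differences of 2.55 for the procollagen protease enhancer Pcolce2, 1.92 for the procollagen protease Bmp1, 1.89 for the prolyl hydroxylase P3h2 and -2.0 for the galactosyltransferase Colgalt2. In the junction 7 rose and 3 fell against the corpus, led by P3h2 (1.26), Bmp1 (1.23), Colgalt2 (-1.04) and Pcolce2 (0.92). Against the forestomach 5 rose and 11 fell in the junction, with Pcolce2 at -1.63, the lysyl hydroxylase Plod2 at -1.37, the prolyl hydroxylase subunit P4ha2 at 1.01 and the export receptor Mia3 at 1.0. P4ha2 and Mia3 were thus higher in the junction than in the forestomach only. Against the corpus both fell in the junction (-0.81, adjusted p = 0.00292, and -0.61, adjusted p = 0.00283).

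Of 4 crosslinking enzymes, Loxl1 (1.12) and Lox (0.49) rose in the forestomach against the corpus, none passed in the junction against the corpus, and Loxl1 (-0.61) fell in the junction against the forestomach. Of 16 collagen-binding proteoglycans and matrix partners 13 rose and 0 fell in the forestomach, led by tenascin X (Tnxb, 2.21), fibromodulin (Fmod, 1.99), lumican (Lum, 1.65) and asporin (Aspn, 1.35). In the junction 5 rose and 2 fell against the corpus, led by Thbs1 (1.29), Fmod (0.96), the basement membrane proteoglycan perlecan (Hspg2, -0.71) and decorin (Dcn, 0.52). Against the forestomach 1 rose and 12 fell, led by Tnxb (-1.77), Aspn (-1.31), Ogn (-1.17) and Sparc (-1.15). Among 9 collagen receptors, of which 4 were called in the forestomach, a smaller share than over all genes, Ddr2 (1.22), the integrin chain Itga1 (0.82) and the uptake receptor Mrc2 (2.05) rose and Ddr1 (-0.33) fell in the forestomach, and only Mrc2 (1.60) passed in the junction against the corpus. Against the forestomach, Ddr2 (-1.22), Itga1 (-1.11) and Itgb1 (-0.41) fell and Itga2 (0.93) rose in the junction. Fibroblast markers rose in 8 of 11 in the forestomach and in 5 of 11 in the junction against the corpus, and smooth muscle markers in 10 of 10 and 0 of 10. Their part in the collagen results was not tested.

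Several genes had more than 1 kept probe set. For 19 such genes, all probe sets had the same sign in 17 genes for forestomach minus corpus, 16 for junction minus corpus and 18 for junction minus forestomach. In the fit over all kept probe sets, the call was the same over all probe sets in only 13, 14 and 13 of the 19 genes, in this order. In that fit the probe sets tested for Col12a1 and Col1a2 were not called for junction minus corpus (adjusted p = 0.0604 and 0.054). The one tested for Col5a1 was not called for junction minus forestomach (0.0525). These genes therefore count as agreeing there, although the fit over genes called them. No gene had 1 probe set called higher and another called lower. The 7 genes with no kept probe set were Col2a1, Col9a2, Col9a3, Col10a1, Col24a1, Col25a1 and Col26a1. Their signal reached at most 44.7 (Col25a1, on a forestomach array), 42.8 (Col24a1) and 38.6 (Col9a3), and at most 22.7 for the others, so no statement on a difference is made for them. Cartilage-type chains such as Col2a1 and Col9a2 were among these dim genes.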

How the data were processed

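The deposited values were linear intensity values, 1 signal per probe set of the mouse 430 2.0 array, which the authors made with MAS5 per the submitters' processing notes. The version and settings of MAS5 were not given in the sources used here. The trimmed mean of every array was the same, so the values had been scaled. Of 45101 probe sets, 34958 had 1 gene symbol in GEO's platform annotation, 932 several and 9211 none. Probe sets above the 40th percentile of the array on at least 3 arrays were kept (29511), and of several kept probe sets of a gene the brightest on average was tested. Signals were tested as log2(signal + 9.8), which understates changes of dim genes, with limma 3.58.1 in R 4.3.3. The fit had 1 mean per zone over 9 arrays, and p-values were adjusted by Benjamini-Hochberg over 13637 genes, with a threshold of 0.05. Further probe sets of a gene were tested in a separate fit over all 29511 kept probe sets, adjusted over these. Their adjusted p-values therefore come from another fit than those of the genes, and part of a disagreement can lie in the fit. Standard errors and intervals are limma's moderated ones. The 3 arrays per zone limit the precision.

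Arrays of a series came from the same pools of mice, as the series' design states, so the number pairs them. Deviations from the zone means correlated between -0.0287 and 0.123 in 9 same-series pairs of arrays. Alternatives were the series as a block, other pseudocounts, filters, normalizations, probe set rules, variance models and left-out arrays. Leaving out forestomach arrays 2 and 3 together was added after seeing the data. The procedure was tested on simulated data.

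The members and lists were chosen with earlier results of these data known. All collagen genes of the rule are accounted for: called genes with signals per array and genes not kept with their highest signal. Of each other list, counts and up to 4 called genes with the largest differences are given. Promoter windows are RefSeq's. Figures were drawn with matplotlib 3.10.9.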

Additional observations from a re-analysis of the deposited data

How the results depend on the processing

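No called difference of a collagen gene changed sign in any alternative, and 18 uncalled ones did. For forestomach against corpus, 22 of 25 calls were kept in each alternative that tested the gene, for junction against forestomach 10 of 20, and for junction against corpus 2 of 13. Without a filter 5 collagen genes rose in the junction against the corpus, and with a filter on all 9 arrays 2 fell in the forestomach and 2 in the junction against the corpus, where fewer genes were tested. Above both neighbours, 1 gene (Col18a1) was called with the mean of the probe sets and 1 (the same gene) with trend and robust variance. With the series as a block, which uses the pairing, 20 rose and 5 fell in the forestomach, 9 rose and 5 fell in the junction against the corpus, and 3 rose and 19 fell against the forestomach; the block ended the Col12a1 call and gained Col1a1 and Col3a1 against the corpus, and gained Col3a1 and Col6a3 against the forestomach. Without forestomach arrays 2 and 3, 1 rose and 10 fell in the junction against the forestomach. With single arrays or series left out, 18 to 20 rose and 5 to 6 fell in the forestomach, 2 to 10 rose and 1 to 5 fell in the junction against the corpus, and 2 to 4 rose and 13 to 17 fell against the forestomach. The median position of the junction was 0.378 on the log2 scale. Col23a1 gave 2.17 for forestomach minus corpus with the filter on all 9 arrays, which leaves another probe set. The cause of the other changes was not tested. Uncalled log2 differences that changed sign were as follows. With quantile normalization, forestomach minus corpus was 0.0949 for Col11a1, 0.06003 for Col11a2, 0.0367 for Col20a1 and junction minus corpus was 0.01401 for Col20a1. With median centring, forestomach minus corpus was 0.0576 for Col11a1, 0.00521 for Col11a2, 0.0536 for Col20a1 and junction minus corpus was 0.0195 for Col20a1. With the mean of the probe sets, forestomach minus corpus was -0.0668 for Col18a1, 0.0144 for Col20a1 and junction minus corpus was -0.0461 for Col4a1 and junction minus forestomach was -0.05397 for Col27a1. Without forestomach arrays 2 and 3, forestomach minus corpus was 0.0231 for Col11a2, 0.0172 for Col20a1, -0.24 for Col6a5 and junction minus forestomach was 0.0172 for Col6a2. With single arrays or series left out, forestomach minus corpus ranged over -0.23 to 0.22 for Col11a1, -0.37 to 0.23 for Col20a1, -0.10 to 0.26 for Col5a3, -0.27 to 0.0894 for Col11a2, -0.21 to 0.72 for Col6a5. Likewise junction minus corpus ranged over -0.62 to 0.00514 for Col22a1, -0.28 to 0.0851 for Col5a3, -0.24 to 0.01999 for Col20a1, -0.41 to 0.0694 for Col6a4, -0.14 to 0.58 for Col6a5, and junction minus forestomach ranged over -0.26 to 0.23 for Col20a1, -0.26 to 0.41 for Col6a5, -0.16 to 0.04004 for Col6a2, -0.03003 to 0.44 for Col22a1, -0.11 to 0.49 for Col4a4. Dim genes such as Col6a5, Col9a1 and Col20a1 lay near the filter level, where the arrays give little precision.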
